A study of Homo sapiens with 6 samples.

Results

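Sites of the splicing protein USP39 in nuclear transfer RNA (tRNA) genes are described here. They come from iCLIP2, an assay meant to mark the places where UV light joined a protein to RNA. A site was counted when its central base lay in the span of a nuclear gene of biotype tRNA, and 250 of the 34781 sites of the list met that rule, each 5 bases wide. They lay in 179 of 443 nuclear tRNA genes. The cells were HEK293T, an established human embryonic kidney line, labelled wild type, irradiated at 254 nm and immunoprecipitated with an antibody against USP39. Libraries came from a high and a low membrane region with 3 replicates each, 6 in all, and the deposited file is 1 merged list, filed under the low region, replicate 1. It holds no value per library and a score of 0 at every site, so read depth and replicate error are unknown, and the membrane regions were not compared. The negative control without UV light and the RNA abundance of these genes were not analysed here, and the list allows no check of the cell type by marker expression. Intervals below are 95% Wilson intervals, which cover counting error among genes or sites and not the spread between libraries.

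A tRNA carries an amino acid to the ribosome and reads a codon with the 3 bases of its anticodon. RNA polymerase III makes it as a precursor, whose 5′ leader is cut off by RNase P and whose 3′ trailer is cut off by RNase Z, and some precursors hold an intron next to the anticodon. The folded RNA has an acceptor stem and 3 arms that end in the D loop, the anticodon loop and the T loop, and many of its bases are chemically modified. USP39 is known for its part in the spliceosome, which splices messenger RNA precursors, while tRNA introns are removed by an endonuclease and a ligase of their own. Symbols such as TRA-AGC2-1 give the amino acid in 1 letter, the anticodon, the number of the transcript and the number of the gene copy. TRX stands for the initiator methionine tRNA (iMet) and TRU for the selenocysteine tRNA (SeC).

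The tRNA genes below show where sites lay relative to the anticodon and the T loop. Sequence could be read for 20 tRNA genes that lie in the promoter windows of neighbouring genes in the RefSeq table (GRCh38.p14, whose chromosome coordinates are those of the site list's GRCh38 build), 14 of them whole, and the lines give those in which the bases of a site could be read. Capitals mark the 5 bases of the USP39 site, and all are written 5′ to 3′ on the strand of the tRNA.
TRN-GTT4-1 (chr1:16889677-16889750, plus strand): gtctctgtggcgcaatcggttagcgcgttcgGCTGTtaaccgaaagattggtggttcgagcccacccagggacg
TRN-GTT6-1 (chr1:143735920-143735993, minus strand): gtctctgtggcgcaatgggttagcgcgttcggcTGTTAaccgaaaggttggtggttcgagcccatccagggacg
TRA-AGC2-2 (chr6:28863685-28863756, minus strand): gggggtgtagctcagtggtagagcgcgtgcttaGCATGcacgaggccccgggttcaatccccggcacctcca
TRI-AAT1-1 (chr6:57800236-57800284, plus strand, bases 26 to 74 of the gene): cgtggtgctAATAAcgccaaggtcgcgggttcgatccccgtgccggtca
TRG-CCC2-1 (chr2:70248991-70249043, minus strand, bases 19 to 71 of the gene): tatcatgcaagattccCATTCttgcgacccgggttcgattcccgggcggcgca
TRG-CCC2-2 (chr16:636736-636806, minus strand): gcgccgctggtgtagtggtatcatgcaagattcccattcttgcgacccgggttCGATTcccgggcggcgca
TRI-AAT8-1 (chr6:27668583-27668656, plus strand): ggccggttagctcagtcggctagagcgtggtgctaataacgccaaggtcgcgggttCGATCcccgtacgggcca

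In TRN-GTT4-1 the site was centred on the base just before the anticodon GTT, and in TRN-GTT6-1 on the middle base of GTT. The site of TRA-AGC2-2 was centred on the adenine that follows the anticodon AGC. TRI-AAT1-1 had its centre on the last base of the anticodon AAT. The site of TRG-CCC2-2 and that of TRI-AAT8-1 were both centred on the adenine of the T loop that follows ttcg. TRG-CCC2-1, a copy of the same glycine transcript as TRG-CCC2-2, had its site centred just past the anticodon CCC instead. The first base of that site lay on the last base of the anticodon. The readable bases of TRG-CCC2-1 are the same as those of TRG-CCC2-2 and cover both sites. Which of the 2 copies each site belongs to is therefore uncertain. In all 8 tRNA genes that had both a site and a readable anticodon, the site lay on the strand of the anticodon, the TRL-CAA1-1 gene of leucine being the eighth. The gene table gives no strand for the other genes, so positions are counted on the strand of the site. In each of the 62 genes with 2 or more sites, all sites lay on 1 strand.

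Of the nuclear tRNA genes, 40.4% held a site (interval 35.9% to 45.0%), against 9.87% of all 59716 genes with a position in the table. The share was 20.6% for snoRNA genes, 17.5% for snRNA genes, 11.8% for rRNA genes, 23.1% for protein-coding genes, 2.75% for lncRNA genes and 1.1% for miRNA genes. Gene length differs between these classes, and per kb of span the tRNA genes held 7.51 sites, the snoRNA genes 4.90, the snRNA genes 3.13 and the protein-coding genes 0.0258. Sites on either strand were counted, and a site in overlapping spans was counted for each gene. Copy number and RNA abundance were not accounted for, so these values are a description. Of the 22 mitochondrial tRNA genes, which are outside the rule, 3 held a site: TRNI, TRNL1 and TRNQ, with 1 each.

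Every amino acid had a tRNA gene with a site, and 45 of 49 pairs of amino acid and anticodon had one. Most genes with a site had only 1, namely 117, while 53 had 2 and 9 had 3. The 9 genes with 3 sites were 3 of serine, TRS-CGA4-1, TRS-TGA1-1 and TRS-TGA4-1, a pair of tyrosine genes, TRY-GTA2-1 and TRY-GTA5-1, and TRD-GTC1-1 of aspartate, TRE-CTC1-7 of glutamate, TRM-CAT1-1 of methionine and TRV-CAC3-1 of valine. Sites of 1 gene lay 5 to 42 bases apart, with a median of 14.

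Tyrosine had the highest share of genes with a site, 10 of 13 or 76.9% (interval 49.7% to 91.8%). Initiator methionine followed with 6 of 8 (75.0%, interval 40.9% to 92.8%) and lysine with 17 of 27 (63.0%, interval 44.2% to 78.5%). At the other end were cysteine with 2 of 29 genes (6.90%, interval 1.91% to 22.0%), histidine with 1 of 9 (11.1%, interval 1.99% to 43.5%) and proline with 3 of 20. The elongator methionine genes, which share their anticodon with the initiator, had a site in 2 of 11 (18.2%, interval 5.14% to 47.7%). The intervals of neighbouring amino acids in the order overlap, and no difference between amino acids was tested. The intervals count gene copies as independent, though the 17 lysine genes with a site come from 9 transcripts. With copies of 1 transcript counted once, the order changed: all 3 aspartate transcripts and the single transcripts of initiator methionine and histidine had a site, against 7 of 9 for tyrosine.

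**Figure D1:**
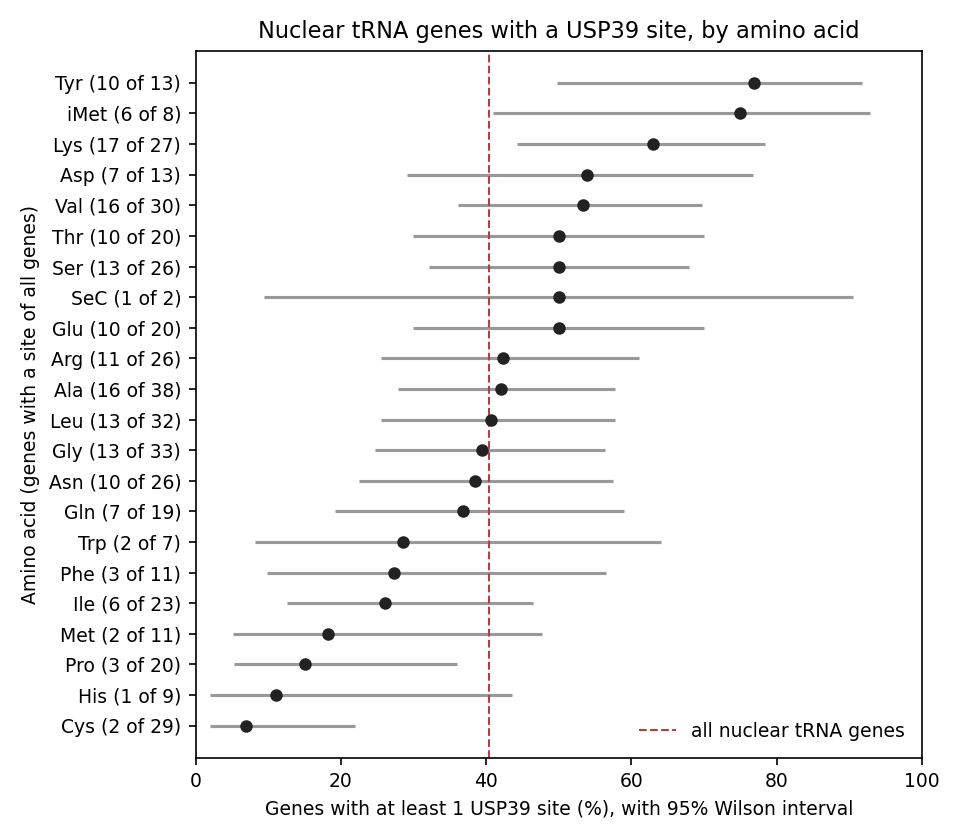
Share of nuclear tRNA genes with at least 1 USP39 site (x axis, percent) for each amino acid (y axis, with the counts of genes); points are shares, lines are 95% Wilson intervals and the dashed line is the share over all 443 genes. Tyrosine stands at 76.9% and cysteine at 6.90%, with wide and mostly overlapping intervals between them.

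Anticodons of the same amino acid differed too. All 4 genes of serine with anticodon CGA and all 4 with TGA had a site, with 8 sites each, against 2 of 10 genes with AGA and 3 of 8 with GCT. Among leucine genes, all 3 with TAG and 3 of 4 with TAA had a site, while 0 of 9 with AAG did. In alanine genes, 6 of 8 with TGC had a site, and 8 of 25 with AGC. No site was centred in the 4 arginine genes with CCG, the 3 isoleucine genes with GAT and the single tyrosine gene with ATA. With so few genes per anticodon and near-identical copies among them, these are counts and not tested differences.

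Copies of 1 transcript share their mature sequence, so a short read can match several of them, and how such reads were handled is not given in the sources used here. Among symbols with a copy number, 201 transcripts had 1 gene copy, of which 101 had a site (50.2%, interval 43.4% to 57.1%). The 57 transcripts with 2 or more copies had 222 copies, of which 77 held a site (34.7%), and 35 of these transcripts had a site in at least 1 copy (61.4%, interval 48.4% to 72.9%). Of these 57 transcripts, 26 had copies with and copies without a site, 9 had a site in every copy and 22 in none. In 17 of 21 transcripts with a site in several copies, at least 2 copies had a site at the same distance from the 3′ end. The lysine transcript TRK-TTT3 had a site in each of its 5 copies, all centred 35 bases from the 5′ end. TRK-CTT2, another lysine transcript, had a site at that position in 4 of 5 copies. Because of the shared sequence, the copy to which a site belongs is uncertain for these transcripts.

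To line up genes of different lengths, positions in the 361 genes spanning at most 76 bases were counted back from the last base, taken as base 73 of the standard tRNA numbering. In that numbering the anticodon is at 34 to 36. The anticodon was looked for only at the expected base and 1 base to either side. Of 16 such genes in which it was read there, it began at 34 in 10 and at 35 in the other 6. A larger offset could not be seen, so the accuracy of the positions in the remaining genes was not tested. The 6 were genes of histidine, glutamine, glycine and threonine with 71 or 72 bases. Positions in such genes can be 1 base too high, so differences of 1 base between amino acids are not resolved. The D loop varies in length before the anticodon loop.

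Sites were gathered in the loops. In these genes 156 of 177 sites (88.1%, interval 82.5% to 92.1%) were centred in the D loop, the anticodon loop or the T loop, which together make up 22 of 73 positions (30.1%). The anticodon loop, 32 to 38, held 100 sites (56.5%, interval 49.1% to 63.6%) in 9.59% of the length. The D loop, taken as 14 to 21, held 29 sites (16.4%) and the T loop, 54 to 60, held 27 (15.3%). The other 51 positions, which include the ends of the gene where no site was centred, held 21 sites. By single position, 35 held 31 sites, 58 held 24, 34 and 37 held 20 each and 20 held 19. Of the sites in the T loop, 24 of 27 were thus centred on position 58. In 10 genes 1 site in the D loop and 1 in the anticodon loop were the 2 sites of the gene, and in 71 genes a single site lay in the anticodon loop.

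**Figure D2:**
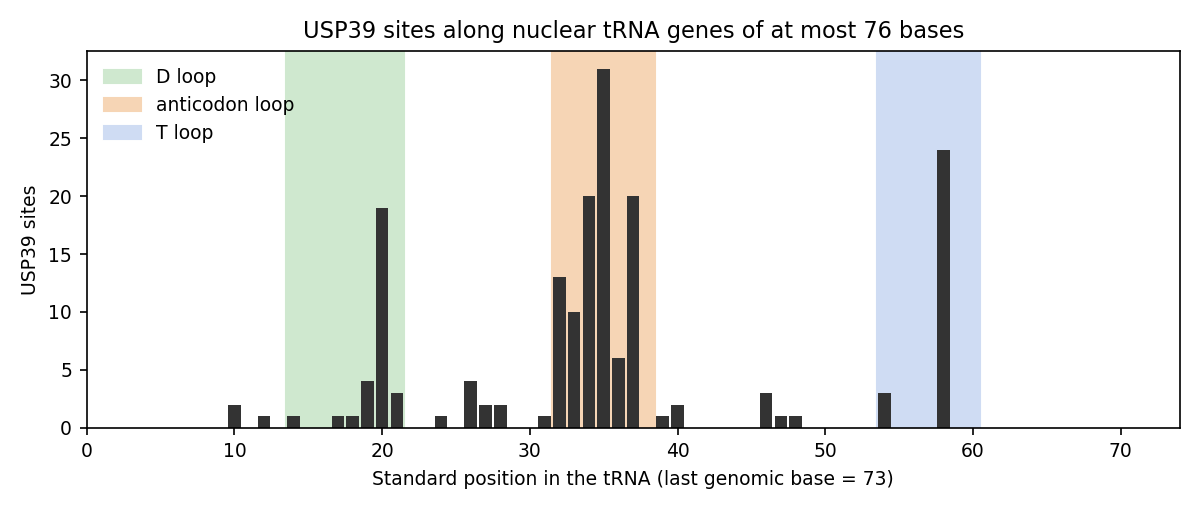
Number of USP39 sites (y axis) centred on each position (x axis, standard numbering with the last genomic base as 73) in nuclear tRNA genes of at most 76 bases. Shaded bands mark the D loop, anticodon loop and T loop, which hold 156 of the 177 sites; the tallest bars are at 35, 58, 34, 37 and 20.

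Which position held most sites differed between amino acids. Of the 20 sites in alanine genes, 13 were centred on position 37, in 13 genes of 12 transcripts and with all 3 anticodons. Position 37 is the base after the anticodon, a purine that often carries a modification in tRNAs. Lysine genes had 13 of 18 sites on position 35, 6 in genes with anticodon CTT and 7 in genes with TTT, from 5 transcripts. In valine genes 11 of 23 sites were centred on position 20 of the D loop and 3 more on 19. Glycine genes had 8 of 18 sites on position 58 and 1 in the anticodon loop, with the site of TRG-CCC2-1 on position 39, just past that loop in this numbering. Position 58 of the T loop is known as a site of 1-methyladenosine in cytosolic tRNAs. Modified bases were not measured in these data. Whether sites at these or other positions arose where UV light joined USP39 or at a modified base was not tested.

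Threonine genes were split by anticodon. All 7 sites in genes with anticodon CGT or TGT were centred on position 32, 1 site in each of 7 genes of 7 transcripts, among them TRT-CGT1-1 and TRT-TGT1-1. Of these genes, TRT-CGT2-1 and TRT-CGT4-1 span 72 bases. In TRT-TGT6-1, a threonine gene of that length, the anticodon began at 35. Positions in both may thus be 1 base too high. All 3 sites in genes with AGT, those of TRT-AGT1-1, TRT-AGT3-1 and TRT-AGT4-1, were centred on position 36. Arginine genes had 3 of 9 sites on position 32, in TRR-CCT1-1, TRR-CCT3-1 and TRR-TCT4-1. Both sites in tryptophan genes, TRW-CCA2-1 and TRW-CCA4-1, were on position 37.

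Glutamate and aspartate genes combined the D loop with the anticodon. Glutamate genes had 6 of 16 sites on position 34, 2 on 35, and 5 on positions 20 and 21. TRE-CTC1-7, on chromosome 6 at 125780247 to 125780318, had 1 site in each of the 3 loops, on positions 20, 34 and 58. Aspartate genes had 5 of 12 sites on position 35, 2 on 34 and 4 on 20. TRD-GTC1-1, on chromosome 12 at 98503503 to 98503574, had sites on positions 10, 20 and 35. In asparagine genes 10 of 13 sites lay on 33 to 35 and the other 3 on position 26, where the D arm meets the anticodon arm. Initiator methionine genes had 6 of 7 sites on 34 or 35, and TRX-CAT1-4 had the other one on 58. The elongator gene TRM-CAT1-1 had sites on 34, 40 and 58, and TRM-CAT6-1 on 32 and 40. In TRV-CAC3-1, on chromosome 19 at 4724635 to 4724707, the sites were on 20, 28 and 33.

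Among the other genes with the most sites of their amino acid, the pairs of positions differed. TRQ-TTG2-1 of glutamine had sites on positions 17 and 35, TRK-TTT3-1 of lysine on 35 and 58, and TRG-CCC1-1 of glycine on 18 and 58. TRA-AGC1-1 of alanine had sites on 37 and 46, TRF-GAA1-4 of phenylalanine on 46 and 58, and TRR-CCT1-1 of arginine on 32 and 48. TRN-GTT1-1 of asparagine and TRI-AAT5-4 of isoleucine both had a site on position 26, with a second on 35 in the asparagine gene and on 33 in the isoleucine gene. The only site of histidine, in TRH-GTG1-1, was on position 34, as was that of TRP-AGG1-1 of proline. In the copies of that histidine transcript with a readable anticodon, it began at 35. The histidine site was thus centred on the base before the anticodon. Of the 2 sites in cysteine genes, that of TRC-GCA17-1 was on 27 and that of TRC-GCA2-4 on 58.

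**Figure D3:**
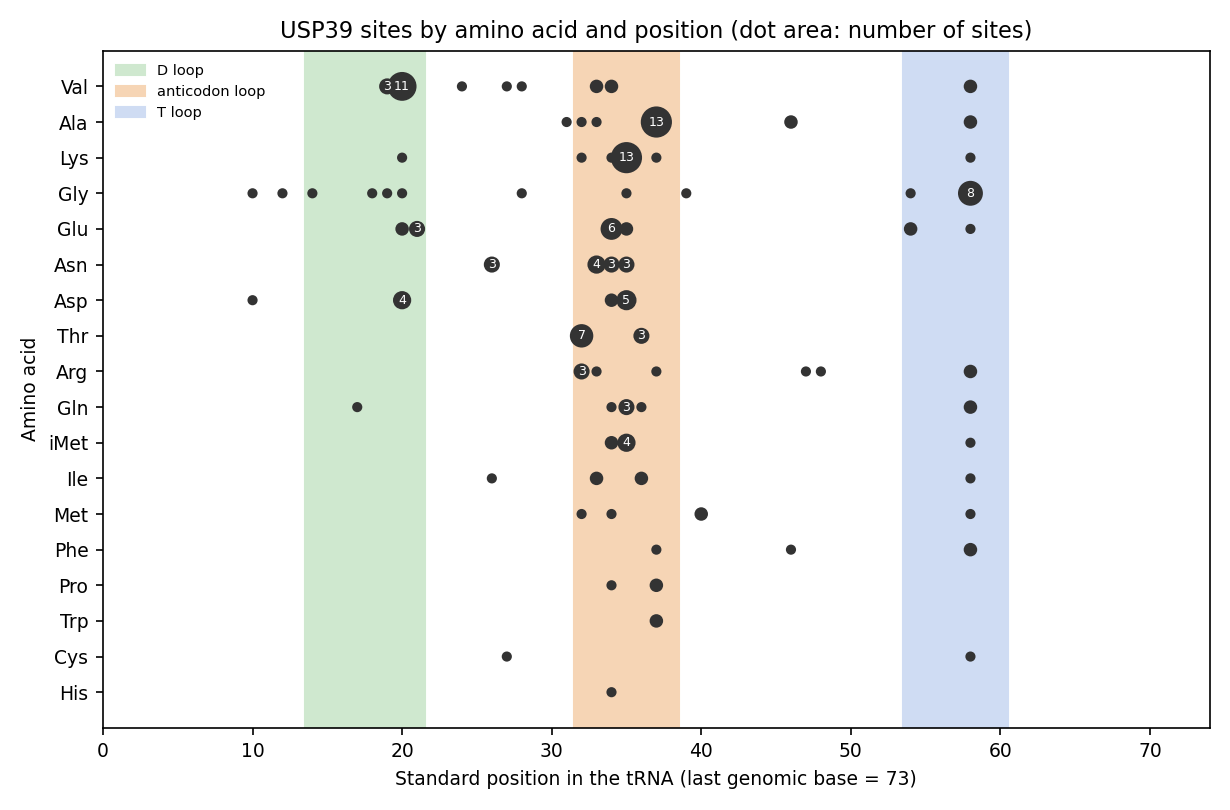
USP39 sites by amino acid (y axis) and standard position (x axis, last genomic base as 73) in nuclear tRNA genes of at most 76 bases; dot area is the number of sites, printed where it is 3 or more, and bands mark the loops. Alanine has 13 sites on position 37, lysine 13 on 35, valine 11 on 20, glycine 8 on 58 and threonine 7 on 32.

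Position 58 was shared most widely. Over genes of every length, 38 sites in 38 genes and 30 transcripts were centred 16 bases from the 3′ end, which is position 58, and they came from 15 amino acids; 14 of them lay in genes longer than 76 bases. No site was centred closer to the 3′ end than that, so the last 15 bases of the genes held no centre, and the first 8 bases held none either. The site caller and its filters are not known. Whether a site could be called in those end bases was not tested.

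The 82 genes longer than 76 bases are mostly those with a long variable arm (serine, leucine, selenocysteine) or an intron, and 41 of them had a site (interval 39.4% to 60.6%), against 138 of the 361 shorter genes (38.2%, interval 33.4% to 43.3%). In serine genes, positions from the 5′ end fell on few bases. Of 25 sites, 7 were centred on base 32 and 4 on base 37, 8 on bases 48 to 51 of the variable arm and 2 on base 67, which is 16 from the 3′ end. The 7 sites on base 32 lay in genes with anticodons AGA, CGA and TGA. TRS-TGA1-1, on chromosome 10 at 67764503 to 67764584, had sites on 32, 37 and 50. TRS-TGA4-1, on chromosome 6 at 27505828 to 27505909, and TRS-CGA4-1, on chromosome 12 at 56190364 to 56190445, had theirs on 32, 37 and 48. The 3 serine genes with anticodon GCT and a site had it on base 35 instead, with a second site at 49, 50 or 51.

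Leucine genes repeated positions within an anticodon. The 3 genes with CAG and a site, TRL-CAG1-7, TRL-CAG2-1 and TRL-CAG2-2, had sites on bases 63 and 68 of 83, the second being 16 from the 3′ end. The leucine gene TRL-CAA1-2, on chromosome 6 at 28941053 to 28941157, had sites on bases 60 and 90. In TRU-TCA1-1, the selenocysteine gene with a site, on chromosome 19 at 45478601 to 45478687, the sites were on bases 20 and 36. The 3 genes with TAA and a site had 1 on base 37 and 1 on base 50 or 51. For comparison, TRL-AAG2-2 is printed as a leucine gene of an anticodon with no site centred in any of its genes, and TRI-TAT2-2 as an isoleucine gene with an intron and no site; here capitals mark the anticodon.
TRL-AAG2-2 (chr6:28943622-28943703, minus strand): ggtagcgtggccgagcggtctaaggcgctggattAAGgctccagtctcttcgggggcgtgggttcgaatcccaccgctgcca
TRI-TAT2-2 (chr6:27020346-27020439, plus strand): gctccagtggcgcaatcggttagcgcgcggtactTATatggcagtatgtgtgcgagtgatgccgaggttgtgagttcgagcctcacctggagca

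In TRI-TAT2-2 the anticodon began at base 35 from the 5′ end but 60 bases from the 3′ end, against 40 bases in TRI-AAT8-1, the intron lying in between. Among the tyrosine, arginine and isoleucine genes of this length, 85 to 94 bases, 14 of 23 had a site, with 24 sites in all. A centre 37 to 39 bases from the 3′ end was found in 13 of these 14 genes. By the standard numbering base 38, the start of the 3′ exon, lies 36 bases from the 3′ end, so these centres fell on about the last 3 bases of the intron and the 5-base sites reached to or across the intron's end. The gene table holds no exons, and the boundary is placed by numbering alone. In the shorter genes the same distances from the 3′ end are positions 35, 36 and 37 of the anticodon loop. Those positions held 31, 6 and 20 sites there. Whether the sites of the intron genes came from precursor or from spliced tRNA was not tested. TRY-GTA2-1, on chromosome 2 at 27050782 to 27050870, had sites 37, 28 and 16 bases from the 3′ end. TRY-GTA5-1, on chromosome 8 at 66113367 to 66113459, had sites 37, 31 and 16 bases from it, and TRY-GTA1-1 at 39 and 16. TRY-GTA3-1 had sites 38 and 28 bases from the 3′ end, and TRI-TAT1-1 had them 56 and 38 bases from it. In tyrosine genes 0 of 19 sites were centred on the first 51 bases.

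**Figure D4:**
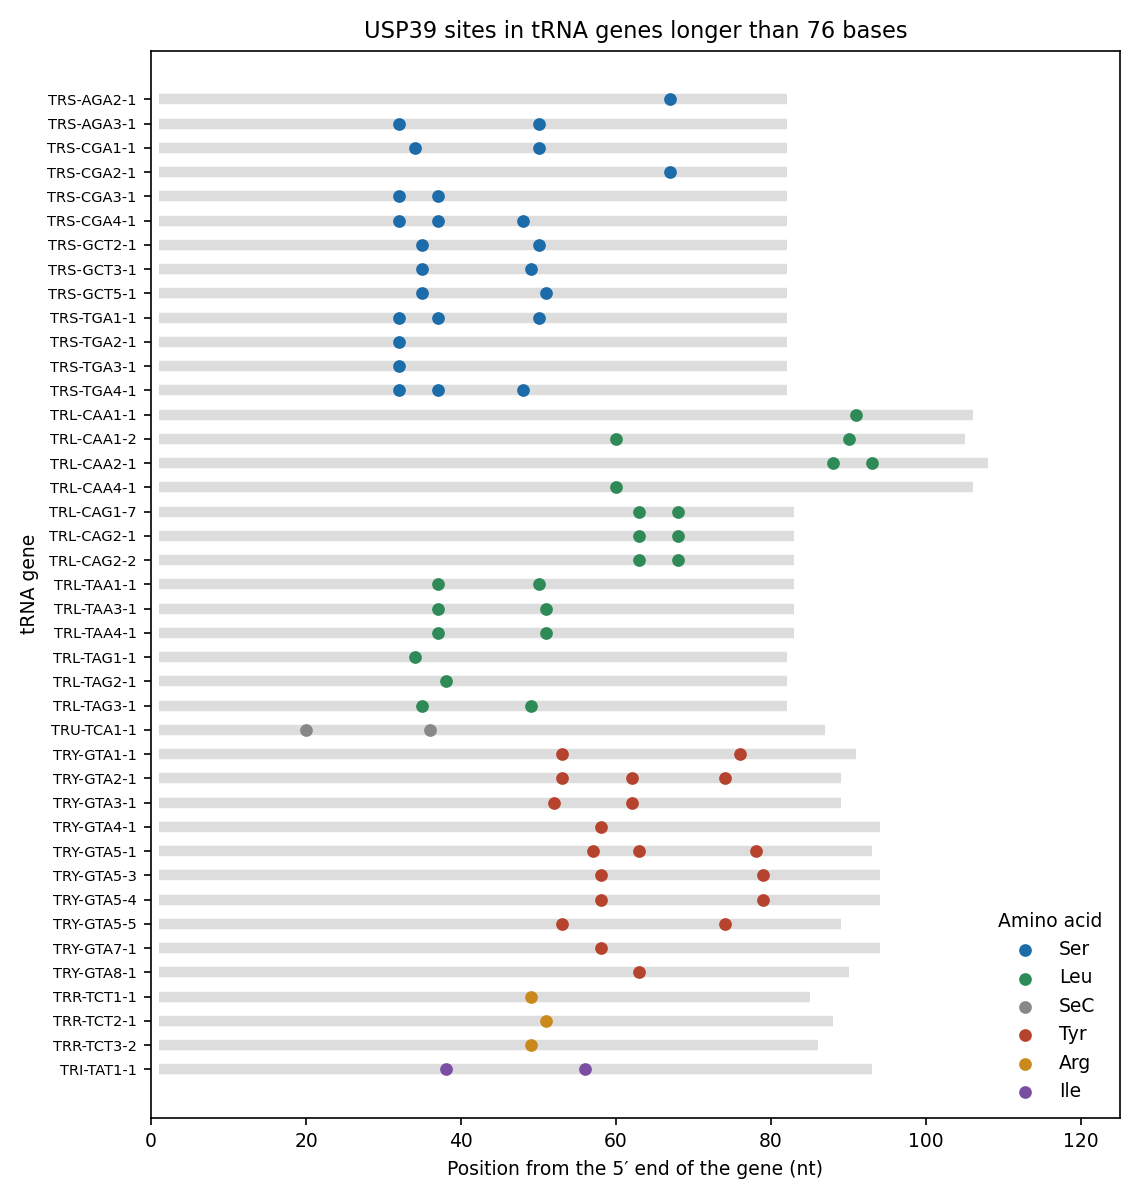
USP39 sites (dots, coloured by amino acid) in each nuclear tRNA gene longer than 76 bases that has a site (y axis), by position from the 5′ end in nt (x axis); grey bars are the gene spans. Serine genes repeat bases 32 and 37, leucine CAG genes bases 63 and 68, and tyrosine genes have no dot before base 52.

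Sites also lay just outside the genes, on the 5′ side. Within 20 bases of a tRNA gene, 58 sites in 57 genes were centred upstream of the first base and 6 sites in 5 genes downstream of the last base, by the strand of the site. These are not among the 250 sites above. Of the upstream sites, 57 were within 10 bases, 40 were 5 to 8 bases away and 12 were 1 or 2 bases away, with a median of 6. Of the 58, 46 lay wholly outside the gene and the other 12 overlapped its first bases. The leader on that side is present in precursor tRNA and is removed from mature tRNA. All 44 upstream sites of genes that also had a site in the gene lay on the same strand as that site. A further 14 genes had an upstream site and none centred in the gene, which brings the genes with a site in the gene or in the 20 bases upstream to 193. Apart from TRL-AAG2-4, whose anticodon was read on the strand of its site, the upstream side of these genes rests on the strand of that site alone, and TRH-GTG1-7 had a site 19 bases upstream and 1 a single base downstream. From 21 to 50 bases away there were 0 upstream sites and 1 downstream, and from 51 to 200 bases 0 and 1, leaving out sites in other tRNA genes. Per kb, the density was 7.75 within the genes (entries on other scaffolds left out). With both sides pooled, it was 3.73 in the 20 bases next to the gene and 0.0389 from 21 to 50 bases. The 3.73 is the value of neither side alone, as 58 of its sites lay upstream and 6 downstream.

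**Figure D5:**
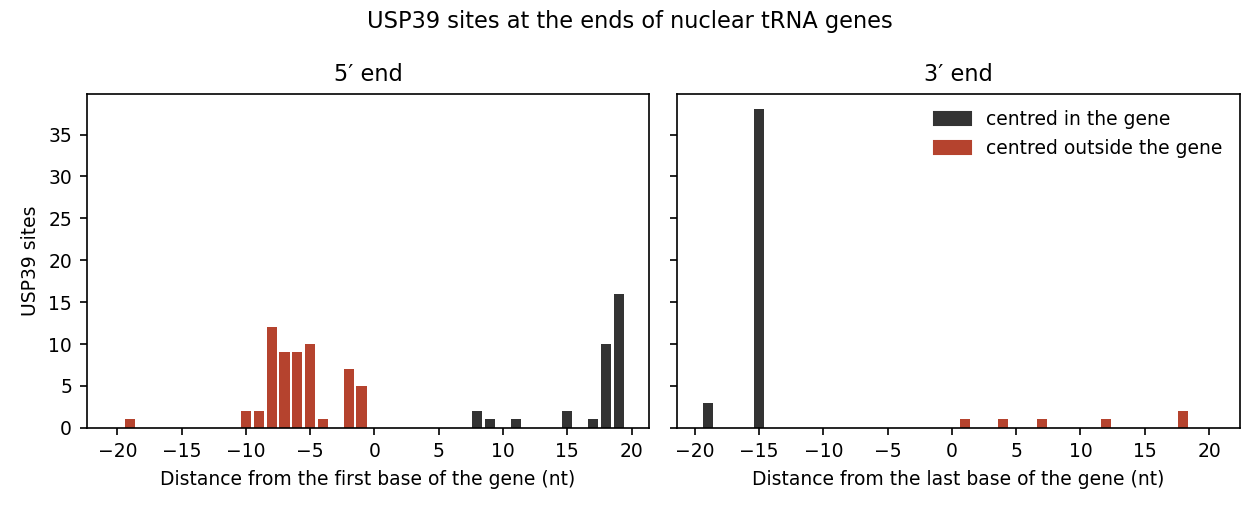
USP39 sites (y axis) by distance in nt from the first base (left) and from the last base (right) of nuclear tRNA genes; black bars are sites centred in the gene and red bars sites centred outside it. Of the red bars, 58 sites lie upstream, mostly 5 to 8 bases away, and 6 lie downstream; inside the gene the 38 sites at position 58 stand 15 bases before the last base.

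Lysine genes had 9 of the upstream sites, aspartate and glycine genes 6 each and valine genes 5. Among them were TRK-TTT3-5 and TRD-GTC2-11, an aspartate gene with sites 2 and 8 bases upstream. Leaders of 3 genes could be read from promoter windows of neighbouring genes in the same table (GRCh38.p14), and they are printed to show the bases under an upstream site. Each line gives the 20 bases before the gene and its first 10 bases, with the site in capitals.
TRK-TTT3-5 (chr17:8119135-8119164, plus strand): aagtaaagctctCGTGAagagcccggatag
TRL-CAA1-1 (chr6:28896319-28896348, minus strand): tcagggctgttaTGCAGtgtgtcaggatgg
TRY-GTA5-3 (chr14:20653183-20653212, minus strand): ccaaccccagAAACGtgcgcccttcgatag

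The sites of TRK-TTT3-5 and TRL-CAA1-1 were centred 6 bases upstream and that of TRY-GTA5-3 was 8 bases upstream. The 5 bases differ among the 3 leaders. TRK-TTT3-5 also had a site on position 35 and TRY-GTA5-3 had 1 at 37 and 1 at 16 bases from the 3′ end.

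By chromosome, chromosome 6, which holds a large tRNA gene cluster, had a site in 65 of 155 genes (41.9%, interval 34.4% to 49.8%). Chromosome 1 had 30 of 98 (30.6%), including entries on other scaffolds, and chromosome 17 had 18 of 33 (54.5%). On chromosome 7, only TRC-GCA17-1, a cysteine gene, of 22 genes had a site (4.55%, interval 0.807% to 21.8%). Most of the chromosome 7 genes are cysteine genes, so this share and the low share of cysteine rest largely on the same genes. Of the 443 genes, 49 lay inside a protein-coding gene.

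Genes for the proteins that make, trim, modify and charge tRNAs were counted too, with each site centred in the span of the gene. Sites on either strand were counted, and a site in overlapping spans was counted for each gene. A site is thus not shown to belong to the gene named. Of 22 genes of aminoacyl-tRNA synthetases and their scaffold proteins, 20 held a site, with a median of 4.50 sites. IARS1, LARS1 and MARS1, which charge isoleucine, leucine and methionine tRNAs, had 51, 25 and 24 sites. For transcription by RNA polymerase III, 14 of 23 genes held a site (median 1.00), among them POLR1C with 13 and GTF3C1, a subunit of the factor that binds the internal promoter of tRNA genes, with 9. In the list of end processing, splicing and export, 11 of 24 genes held a site (median 0), with 23 in the tRNA exporter XPOT, 9 in SSB, which encodes the La protein that binds precursor ends, and 5 in ELAC2, the RNase Z of the 3′ trailer. Of 40 tRNA modification genes, 15 held a site (median 0), with 30 in WDR4, a partner of the 7-methylguanosine enzyme, and 12 each in PUS1, a pseudouridine synthase, and DUS1L, a dihydrouridine synthase. The median over all 20050 protein-coding genes was 0 sites, and 23.1% of them held a site. Expression of these genes was not measured here.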

How the data were processed

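The build was GRCh38.p12, per the submitters' processing notes, which also list UMI-tools 1.1.2, bedtools 2.29.2, SAMtools 1.10, STAR 2.7.3a and FastQC 0.11.9, with no role or order. Not given in the sources used here are the site caller and its filters, the libraries merged and the treatment of reads that map to several places. The authors deposited 1 list of sites whose score is 0 throughout, so only positions and strands were used, written with the first base as 1. Genes came from RefSeq GRCh38.p14, which gives no strand or exons; 14 of the 443 nuclear tRNA entries stand outside the position order of their chromosome and are on other scaffolds, and none held a site. tRNA sequence was cut from RefSeq promoter windows that cover a tRNA gene, and its strand was taken from the anticodon. Named genes are those with 3 or more sites, the gene with the most sites of each amino acid (ties by symbol), up to 5 intron genes with a site, transcripts of 4 or more copies with a site in each, the top 3 of each pathway list and up to 3 mitochondrial tRNA genes; others were chosen after their values were seen, and 1 gene of the pathway lists is not reported here. The members and lists were chosen with earlier results of these data known, and no test was run, since no value has a replicate. Site assignment was tested on simulated data. Python 3.11.15, pandas 2.3.3 and statsmodels 0.14.6 were used.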

Additional observations from a re-analysis of the deposited data

How the results depend on the processing

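The number of sites in nuclear tRNA genes, 250, was 263 with any base of the site in the gene, 250 with all 5 bases, 314 with genes widened by 20 bases, 178 with sites within 50 nt joined and 216 without genes inside protein-coding genes. The share of genes with a site was 51.9% with each transcript counted once and 14% with at least 2 sites required, against 40.4%; 4 other settings and the removal of entries on other scaffolds, added after seeing the data, left it inside its interval. The share of sites in the anticodon arm, bases 27 to 43 from the 5′ end, was 53.2%. It was 62.1% in spans of at most 76 bases, 61.0% there when counted from the 3′ end (added after seeing the data) and 62.5%, or 5 of 8 sites, where the anticodon could be read. In 3 other settings it was 48.4% to 52.4%. The highest share of an amino acid was 100% with each transcript counted once (aspartate, histidine and initiator methionine), against 76.9% for tyrosine genes. In settings added after seeing the data, 46 of the 58 upstream sites lay wholly outside the gene and 44 belonged to genes with a site inside; with each transcript counted once, 30 of the 38 sites on position 58 stayed, and the share of sites in the 3 loops was 85.8%. The pathway counts had no alternative setting. No paired analysis was possible because the list is merged and has no value per library; for the same reason no replicate could be left out. A limit to the annotated strand was not run, as the table has no strand. Depth is unknown, so a gene without a site is not shown to be unbound.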
